A study of Mus musculus with 10 samples.

Results

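The genes described here are 6 receptors that place dendritic cells within the spleen, Gpr183, Ccr7, Cxcr5, Ccr6, Ccr1 and Cxcr4. They were taken as listed symbols, each with its 1 probe set, out of 19938 genes measured on 10 one-colour arrays. All 6 were found. The cells were type 2 conventional dendritic cells (cDC2), a dendritic cell subset that primes helper T cells, sorted from collagenase-digested spleens after enrichment of CD11c+ cells. The donors were mice of the wild type (WT) or CD11c-Cre+ Notch2f/f animals, named Notch2-11cKO as in the sample titles, in which the CD11c promoter drives Cre recombinase against floxed Notch2, so that deletion is expected in CD11c-expressing cells. Mice were untreated or were studied 24 hours after an intraperitoneal dose of 200000000 red blood cells of sheep (SRBC), an antigen in particle form. WT untreated and Notch2-11cKO untreated had 2 arrays each, WT SRBC and Notch2-11cKO SRBC 3 each. The ages and the number of mice behind an array are not stated in the sources used here, so the spread between arrays may be technical in part.

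These receptors are G protein-coupled and steer cells along gradients of a chemokine or, for Gpr183 (also called EBI2), of oxysterols such as 7-alpha,25-dihydroxycholesterol. In the spleen Gpr183 holds CD4-expressing cDC2 at the bridging channels at the edge of the white pulp, Ccr7 draws maturing dendritic cells into the T cell zone towards CCL19 and CCL21, and Cxcr5 responds to CXCL13, the chemokine of B cell follicles. Ccr6 recognises CCL20, Ccr1 recognises inflammatory chemokines such as CCL3 and CCL5 and is common on myeloid cells, and Cxcr4 recognises CXCL12, which retains cells in bone marrow and other stromal niches.

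Gpr183 and Ccr6 were lower in Notch2-11cKO than in WT cells without treatment, and Ccr6 was lower after SRBC too. Ccr1 was higher in Notch2-11cKO in both states. Cxcr5 and Ccr7 rose after SRBC in WT cells, and Cxcr5 ended lower in Notch2-11cKO than in WT. In Notch2-11cKO Cxcr5 rose too, at the threshold, and Ccr7 lay higher on every SRBC array without passing. For neither did the difference of the responses pass. Cxcr4 did not pass the threshold in any comparison. Differences are given on the log2 scale ± the standard error of a linear model over all 19938 genes (limma), with p adjusted over all of them and a threshold of 0.05. The array signal has no detection call, so a level near the bottom of the range cannot be told from background.

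**Figure D1:**
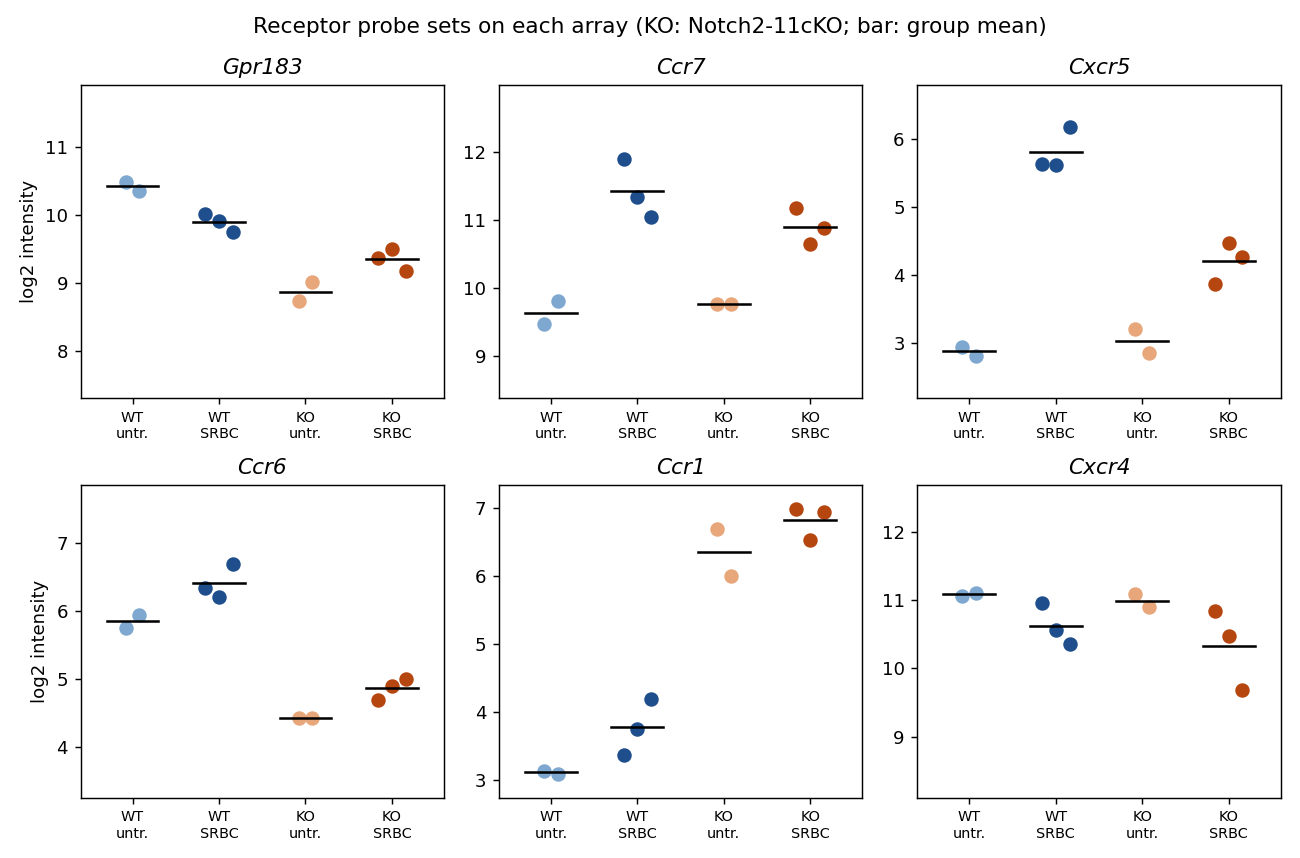
Log2 intensity (vertical axes, each spanning the same number of log2 units) of the probe set of each receptor on every array (points) in the 4 groups, with the group mean as a bar. KO stands for Notch2-11cKO and untr. for untreated; Cxcr5 reached 5.61 to 6.17 on the WT SRBC arrays and 3.87 to 4.47 on the Notch2-11cKO SRBC arrays.

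The targeted gene did not check the labels. Notch2 had a log2 intensity of 8.11 and 8.14 in WT untreated, 7.58, 7.09 and 7.09 in WT SRBC, 8.37 and 8.17 in Notch2-11cKO untreated, and 7.96, 7.64 and 7.23 in Notch2-11cKO SRBC, and so was not lower in either Notch2-11cKO group (0.14 ± 0.26, adjusted p = 0.915, and 0.35 ± 0.21, adjusted p = 0.455). The sources used here do not say which part of the gene is deleted, and a probe set outside that part cannot show the deletion, so every genotype below is the labelled one. By their mean over all arrays, the cDC2 genes Itgax, Sirpa, Flt3 and H2-Ab1 lay above 96.5% or more of genes. They were the 4 highest of 12 cDC2 markers and do not stand for the list, whose lowest member, Esam, lay above 44.7%. In untreated Notch2-11cKO 4 of 12 cDC2 markers (Cd4, Clec4a4, Esam and Kit) were lower and Cd209a was higher. Of all genes 2.16% were lower and 2.95% higher there. After SRBC 3 of 12 (Clec4a4, Esam and Kit) were lower and 2 (Itgam and Cd209a) higher, against 1.96% and 3.36% of all genes. Within groups arrays correlated at r 0.972 to 0.984 over 9969 brighter genes, except WT SRBC replicate 1 (r 0.929 and 0.928 with the others of its group) and Notch2-11cKO SRBC replicate 3 (0.947 and 0.936). Receptor results that change without these arrays are given with and without them. Marker, immediate-early and heat shock calls were not checked this way, apart from genes shared with other lists. The 2 arrays were picked by their correlation in these data, and without both more genes passed (2300 against 756 in the WT response, 398 against 61 in Notch2-11cKO). Passing without them is therefore not independent support. Each array averages many cells, so fewer cells that carry a receptor and less of its RNA per cell cannot be told apart.

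Of the 6 receptors, 3 passed between untreated genotypes, 1 higher and 2 lower in Notch2-11cKO, where 5.11% of all genes did (2.95% higher, 2.16% lower). After SRBC 3 of 6 passed between genotypes, 1 higher and 2 lower, against 5.32% of all genes (3.36% higher, 1.96% lower). In WT 2 of 6 rose after SRBC, against 3.79% of genes that passed (1.82% higher, 1.97% lower). In Notch2-11cKO 1 of 6 rose, against 0.306% (0.140% higher, 0.166% lower). None of the 6 passed in the difference of the responses, where 0.0201% of genes did (0.0100% in each direction).

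Separation of the arrays was common among all genes. Every SRBC array lay beyond every untreated array for 6 of 6 receptors in WT (4 higher, 2 lower), against 33.5% of genes (17.8% higher, 15.7% lower), and for 5 of 6 in Notch2-11cKO (4 higher, 1 lower), against 28.3% (16.1% higher, 12.2% lower). Genotypes were separate for 3 of 6 receptors untreated (1 higher, 2 lower), against 48.8% of genes (22.0% higher, 26.8% lower), and for 4 of 6 after SRBC (1 higher, 3 lower), against 20.3% (9.96% higher, 10.4% lower). The receptors were listed with results of these data known, so these counts describe the list. The median difference of the 6 was 0.61 in the WT response against 0.02 over all genes, 0.47 against 0.03 in the Notch2-11cKO response, 0.01 against -0.02 between untreated genotypes and -0.53 against -0.02 after SRBC. The comparisons share arrays, so their counts are not independent.

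Gpr183 was among the most intense transcripts in WT cells. Its log2 intensity was 10.49 and 10.36 in WT untreated, 10.02, 9.91 and 9.76 in WT SRBC, 8.74 and 9.02 in Notch2-11cKO untreated, and 9.37, 9.51 and 9.18 in Notch2-11cKO SRBC. No array of one group overlapped another group. The order from high to low was WT untreated, WT SRBC, Notch2-11cKO SRBC and Notch2-11cKO untreated, with neighbouring means 0.48 to 0.54 apart and gaps of 0.34, 0.25 and 0.16 between the nearest arrays. The untreated genotypes differed by -1.55 ± 0.19, a 2.92-fold lower signal in Notch2-11cKO (adjusted p = 0.000596), and this call held under each of the 21 alternative settings, where it ranged from -1.69 to -1.40.

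After SRBC the genotypes lay closer together for Gpr183. The signal went down in WT (-0.53 ± 0.18, adjusted p = 0.134) and up in Notch2-11cKO (0.48 ± 0.18, adjusted p = 0.373), and neither passed with all arrays weighted alike. The WT value passed with array weights (adjusted p = 0.0368) and without the 2 arrays that stand apart (0.0256). With the immediate-early mean as a covariate, which cannot be told apart from SRBC, it was -0.21 (adjusted p = 0.771). The remaining difference between genotypes was -0.54 ± 0.16 (adjusted p = 0.0752). It passed among only the genes above the median level (adjusted p = 0.0448), without the mean-variance trend (0.0422) and with the immediate-early mean as a covariate (0.0254). The responses themselves differed by 1.00 ± 0.25 (adjusted p = 0.336, unadjusted p = 0.00183), and by 1.16 without WT SRBC replicate 1 and Notch2-11cKO SRBC replicate 3 (adjusted p = 0.0145). Of all genes 166 (0.833%) were lower on every SRBC array in WT and higher on every SRBC array in Notch2-11cKO. The reverse held for 133 (0.667%). Among the 166, 25 (0.125% of all genes), Gpr183 with them, were also lower in Notch2-11cKO on every array in both states. That pattern is the order of Gpr183's own groups, so its share is not support.

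Ccr6 resembled Gpr183 in the genotype comparison and went up on every SRBC array. Ccr6 had a log2 intensity of 5.76 and 5.94 in WT untreated, 6.34, 6.21 and 6.69 in WT SRBC, 4.43 and 4.43 in Notch2-11cKO untreated, and 4.70, 4.90 and 5.0 in Notch2-11cKO SRBC. No 2 groups overlapped, and both WT groups lay above both Notch2-11cKO groups. Notch2-11cKO was lower by -1.43 ± 0.19 without treatment (2.69-fold, adjusted p = 0.000921) and by -1.55 ± 0.15 after SRBC (2.93-fold, adjusted p = 0.000141), and both calls held under all 21 settings. The SRBC responses were 0.56 ± 0.17 in WT (adjusted p = 0.104) and 0.44 ± 0.17 in Notch2-11cKO (adjusted p = 0.412). Their difference was -0.12 ± 0.24 (adjusted p = 0.981), so no difference of response is shown for Ccr6. The 95% interval of -0.66 to 0.41 leaves room for one in either direction. The WT response passed only with array weights (0.56, adjusted p = 0.049).

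Because Gpr183 and Ccr6 were both lower in untreated Notch2-11cKO, the windows around their starts (250 bases before to 50 after, from RefSeq, build GRCm38.p6) were searched on both strands for TGGGAA, the core letters recognised by RBPJ, the DNA-binding partner of Notch. Windows were found for 4 of the 6 receptors (5 windows, as Ccr6 has more than 1 start), and not for Ccr7 and Cxcr5. The 2 windows with a match are shown, 5′ to 3′ on the gene's strand, with the match in capitals. It reads TTCCCA here because it lies on the opposite strand.
Gpr183, chr14:121965144-121965443, minus strand: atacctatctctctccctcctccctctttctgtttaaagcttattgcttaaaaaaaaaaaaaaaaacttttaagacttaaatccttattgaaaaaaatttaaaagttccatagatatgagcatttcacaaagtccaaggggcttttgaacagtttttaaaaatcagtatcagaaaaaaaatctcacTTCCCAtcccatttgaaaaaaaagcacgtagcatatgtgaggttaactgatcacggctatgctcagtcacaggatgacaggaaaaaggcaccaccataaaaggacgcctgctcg
Ccr6, chr17:8242276-8242575, plus strand: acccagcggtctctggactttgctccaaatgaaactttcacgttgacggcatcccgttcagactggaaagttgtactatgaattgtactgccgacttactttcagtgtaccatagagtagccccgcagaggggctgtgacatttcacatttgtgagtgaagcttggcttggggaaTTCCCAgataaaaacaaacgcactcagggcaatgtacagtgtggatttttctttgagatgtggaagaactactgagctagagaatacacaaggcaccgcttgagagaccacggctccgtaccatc
The match begins at position -64 from the start in Gpr183 and at position -75 in the second Ccr6 window. Windows of Ccr1, Cxcr4 and the first Ccr6 start held none. Of 32851 windows of this length held by RefSeq, 25.6% contained TGGGAA. A match describes the letters and is not a measured site.

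Cxcr5 had the largest log2 difference after SRBC among the 6. Its log2 intensity was 2.94 and 2.81 in WT untreated, 5.63, 5.61 and 6.17 in WT SRBC, 3.21 and 2.85 in Notch2-11cKO untreated, and 3.87, 4.47 and 4.26 in Notch2-11cKO SRBC. The untreated groups overlapped, at levels below which only 8.2% (WT) and 10.7% (Notch2-11cKO) of genes lay, all WT SRBC arrays stood highest, and all Notch2-11cKO SRBC arrays lay between. The rise in WT was 2.93 ± 0.21 (7.60-fold, adjusted p = 7.39e-05) and held under the 20 settings that kept this dim gene. Since the untreated level may lie at background, the fold may be bounded by it. With log2 of the value plus 16, which damps dim genes, it was 1.62, so its rank above the intense Ccr7 depends on the scale.

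In Notch2-11cKO the rise of Cxcr5 was 1.17 ± 0.21 (2.25-fold, adjusted p = 0.0483). This call stands at the threshold: it was lost in 15 of 20 settings, among them 8 of the 10 that leave out 1 array (adjusted p from 0.052 to 0.308 in these), the replicate block (adjusted p = 0.0835) and quantile normalization (0.0541). With log2 of the value plus 16 the rise was 0.51 (adjusted p = 0.157). After SRBC, Notch2-11cKO was lower than WT by -1.60 ± 0.19 (3.03-fold, adjusted p = 0.000475), a call kept in all 20 settings, whereas the untreated genotypes differed by 0.15 ± 0.23 (adjusted p = 0.89, 95% interval -0.35 to 0.66). The test of the responses themselves gave -1.75 ± 0.30 (unadjusted p = 9.13e-05, adjusted p = 0.146), so the smaller response of Notch2-11cKO did not pass over all genes. It passed without WT SRBC replicate 1 (-1.84, adjusted p = 0.0472), without both arrays that stand apart (-1.87, adjusted p = 0.0104) and with array weights (-1.87, adjusted p = 0.0287).

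Cxcr5, Ccr7, Ccr6 and Gpr183 are also B cell genes and Cxcr5 and Ccr7 are found on T cells. None of the 9 measured B cell markers and none of the 8 measured T cell markers passed in either SRBC response. Between genotypes, 1 of 9 B cell markers (Ms4a1, -1.39 ± 0.28 untreated and -0.89 ± 0.23 after SRBC, adjusted p = 0.0139 and 0.0469) and 1 of 8 T cell markers (Cd5, -1.47 ± 0.28 and -1.10 ± 0.23, adjusted p = 0.0108 and 0.0183) were lower in Notch2-11cKO, the direction of Gpr183 and Ccr6. In these comparisons 2.16% (untreated) and 1.96% (after SRBC) of all genes were lower. The summed intensity of the B cell markers was 236 to 268 in WT untreated and 222 to 270 in WT SRBC, and 247 to 315 and 208 to 238 in the Notch2-11cKO groups. Of the chains of the B cell receptor, Cd79a lay between 2.49 and 3.29 and Cd79b between 5.38 and 7.46, and the kinase Blk lay between 4.84 and 6.73. The T cell sum was 284 to 335 in WT untreated, 260 to 310 in WT SRBC, 201 to 203 in Notch2-11cKO untreated and 214 to 257 in Notch2-11cKO SRBC. No marker was at 0, as the values hold no 0. The part of B and T cells in these values was not tested.

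Some markers of other cells moved with the WT response in which Cxcr5 and Ccr7 rose. In that response 1.82% of all genes were higher and 1.97% lower, and in the Notch2-11cKO response 0.140% and 0.166%. The macrophage genes C1qc (1.72 ± 0.31), Vcam1 (1.75 ± 0.25) and Spic (2.11 ± 0.42), 3 of 10, were higher after SRBC, as were Xcr1 (1.09 ± 0.22) and Irf8 (1.42 ± 0.33) among 9 markers of type 1 conventional dendritic cells, of which Wdfy4 was lower. The neutrophil gene S100a8, 1 of 10, was higher in WT (2.85 ± 0.46, adjusted p = 0.00658) and in Notch2-11cKO (3.07 ± 0.46, adjusted p = 0.0263). In WT the list medians were 0.83 (macrophage), 0.15 (type 1 conventional dendritic cell) and 0.03 (neutrophil), against 0.02 over all genes. The summed intensity of the type 1 conventional dendritic cell markers was 1800 to 1950 in WT untreated and 1330 to 1410 in WT SRBC. Their mean log2 intensity went the other way, from 5.84 to 6.21 in WT untreated to 6.25 to 6.39 in WT SRBC. Wdfy4, the most intense of them (up to 10.38), weighs heavily in the sum. Of 12 cDC2 markers Itgam (-1.44 ± 0.19), Cd4 (-1.32 ± 0.20) and Cd209a (-1.83 ± 0.21) fell in WT, where the list median was -0.61, and Cd209a in Notch2-11cKO (-1.49 ± 0.21). The part of these changes in the receptor values was not tested.

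Ccr7 was intense in every group and went up on every SRBC array in both genotypes. The log2 intensity of Ccr7 was 9.47 and 9.81 in WT untreated, 11.90, 11.34 and 11.05 in WT SRBC, 9.76 and 9.76 in Notch2-11cKO untreated, and 11.17, 10.65 and 10.89 in Notch2-11cKO SRBC. WT SRBC replicate 1 was the highest, the SRBC groups overlapped each other, and so did the untreated groups. The WT rise was 1.79 ± 0.24 (3.45-fold, adjusted p = 0.00271) and was lost without WT untreated replicate 1 (1.62, adjusted p = 0.069). In Notch2-11cKO the difference was 1.14 ± 0.24 (2.20-fold, adjusted p = 0.0895), and it passed without WT SRBC replicate 1 (1.14, adjusted p = 0.0201), without both arrays that stand apart (1.15, adjusted p = 0.012) and with array weights (1.21, adjusted p = 0.013). WT SRBC replicate 1 is not part of this response, so without it only the shared spread and the adjustment changed. Between genotypes Ccr7 differed by 0.12 ± 0.26 untreated (adjusted p = 0.932) and by -0.53 ± 0.22 after SRBC (adjusted p = 0.225). The responses differed by -0.65 ± 0.34 (adjusted p = 0.831, 95% interval -1.39 to 0.10).

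Ccr1 separated the genotypes most. Its log2 intensity was 3.14 and 3.10 in WT untreated, 3.38, 3.76 and 4.20 in WT SRBC, 6.70 and 6.01 in Notch2-11cKO untreated, and 6.99, 6.53 and 6.95 in Notch2-11cKO SRBC. Every Notch2-11cKO array was above every WT array, with a gap of 1.81 between the nearest. The WT untreated level was low, with 11.7% of genes below it, so the fold may be bounded by background. Notch2-11cKO was higher by 3.23 ± 0.28 without treatment (9.39-fold, adjusted p = 6.16e-05) and by 3.05 ± 0.23 after SRBC (8.26-fold, adjusted p = 2.42e-05). Both calls held under all 21 settings, with 1.99 and 2.11 as the smallest values, both from log2 of the value plus 16. SRBC gave 0.65 ± 0.26 in WT (adjusted p = 0.214) and 0.47 ± 0.26 in Notch2-11cKO (adjusted p = 0.598). The WT value passed only without both arrays that stand apart (0.86, adjusted p = 0.0407).

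Markers of other myeloid cells moved with Ccr1, in comparisons in which 2.95% (untreated) and 3.36% (after SRBC) of all genes were higher and 2.16% and 1.96% lower. Of 8 measured monocyte markers 5 were higher (Ccr2, Csf1r, Lyz2, F13a1 and Cx3cr1) and Treml4 was lower in untreated Notch2-11cKO, and their summed intensity was 5650 to 5880 in WT untreated against 11600 to 13000 in Notch2-11cKO untreated. After SRBC the sum was 2580 to 4170 against 8790 to 10800. The median difference of the monocyte list was 2.28 untreated and 1.80 after SRBC. Nr4a1, a member that is also on the immediate-early list, reached 12.04 and weighs heavily in these sums. It went the other way untreated (-0.98 ± 0.60, adjusted p = 0.555). Of 10 macrophage markers 8 were higher in untreated Notch2-11cKO (sum 3420 to 4240 against 903 to 981 in WT), and of 10 neutrophil markers Csf3r was higher (sum 254 to 463 against 217 to 230). After SRBC 7 macrophage markers were higher (sum 3300 to 4170 against 1550 to 2200), and of the neutrophil markers S100a8 and Csf3r were (493 to 1150 against 357 to 480). Over all arrays the neutrophil genes S100a8 and S100a9 spanned 3.98 to 8.98 and 4.43 to 8.79, and Ly6g 2.60 to 3.22. Plasmacytoid dendritic cell markers had 2 of 7 higher untreated (sum 846 to 998 against 448 to 535) and 3 of 7 after SRBC (864 to 1270 against 482 to 523), and of 9 markers of type 1 conventional dendritic cells 4 were higher and 1 lower untreated (sum 1740 to 1800 against 1800 to 1950) and 3 higher and 1 lower after SRBC (1270 to 1510 against 1330 to 1410). The mean log2 intensity of the type 1 conventional dendritic cell markers was higher in Notch2-11cKO, unlike their sum. It was 6.84 to 6.90 against 5.84 to 6.21 in WT untreated, and 6.56 to 6.73 against 6.25 to 6.39 after SRBC. The part of all these cells in the Ccr1 signal was not tested.

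**Figure D2:**
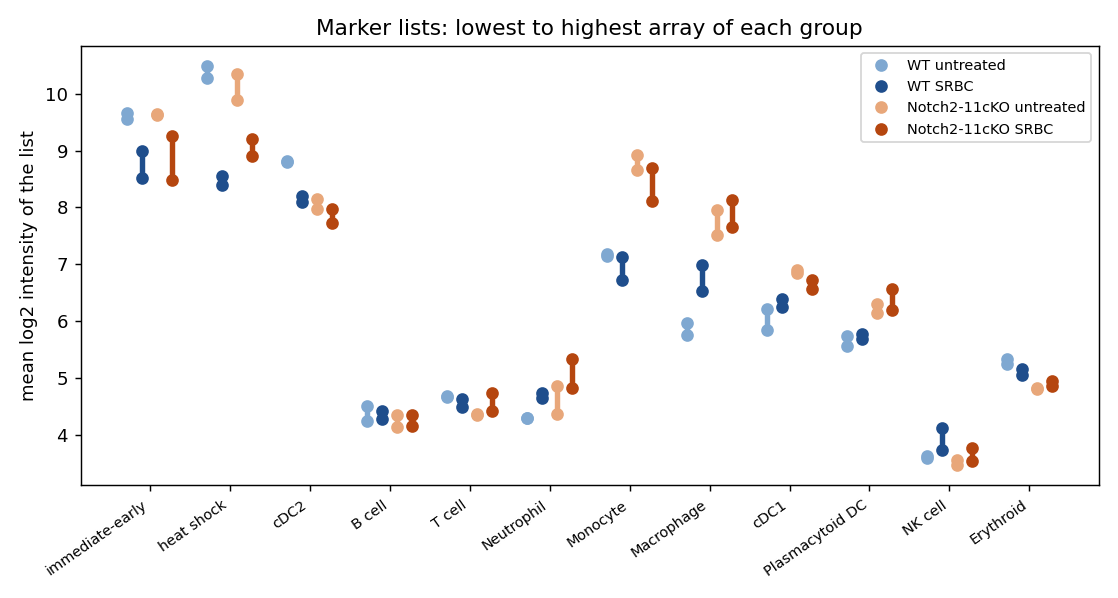
Mean log2 intensity (vertical axis) of each list of marker, immediate-early or heat shock genes, from the lowest to the highest array of each of the 4 groups (points joined by a line). Monocyte and macrophage lists are higher in both Notch2-11cKO groups than in the WT group of the same treatment, while B cell lists lie between 4.13 and 4.50 in all groups.

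Cxcr4 was intense on every array. On the log2 scale Cxcr4 was 11.07 and 11.11 in WT untreated, 10.96, 10.56 and 10.36 in WT SRBC, 11.09 and 10.90 in Notch2-11cKO untreated, and 10.84, 10.47 and 9.69 in Notch2-11cKO SRBC. Every SRBC array lay below every untreated array of its genotype, and each group overlapped its neighbour in the order. The SRBC response was -0.46 ± 0.29 in WT (adjusted p = 0.476) and -0.66 ± 0.29 in Notch2-11cKO (adjusted p = 0.475), with 95% intervals of -1.09 to 0.17 and -1.29 to -0.03. The extremes among SRBC arrays were WT SRBC replicate 1 and Notch2-11cKO SRBC replicate 3, the arrays that stand apart. Without both, the WT value was -0.63 and passed (adjusted p = 0.0172).

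Immediate-early genes, which tissue digestion is known to induce, had a lower list mean on every SRBC array than on the untreated arrays. Of 22 genes 4 fell in WT (Egr1, Egr2, Ier2 and Dusp1, list median -0.68) and 2 in Notch2-11cKO (Ier2 and Zfp36, list median -0.76), and none rose. Of all genes 1.97% fell in WT and 0.166% in Notch2-11cKO. The Egr2 call stood at the threshold (adjusted p = 0.0499). Single members such as Socs3 (0.71 ± 0.22 in WT, adjusted p = 0.11) went the other way. Their mean log2 intensity over 22 genes was 9.66 and 9.56 in WT untreated, 8.99, 8.51 and 8.54 in WT SRBC, 9.63 and 9.65 in Notch2-11cKO untreated, and 9.25, 8.95 and 8.49 in Notch2-11cKO SRBC. With this mean as a covariate the Cxcr4 response turned to 0.79 in WT (adjusted p = 0.171) and 0.34 in Notch2-11cKO (adjusted p = 0.523), and the genotype difference after SRBC passed (-0.59, adjusted p = 0.0226). That difference was -0.29 ± 0.26 in the fit without it (adjusted p = 0.64). Heat shock genes were lower too, against the same 1.97% (WT) and 0.166% (Notch2-11cKO) of all genes. In WT 8 of 11 fell (list median -1.37), among them the chaperones Hsph1 (-4.69 ± 0.25) and Hspa1a (-4.43 ± 0.54), and in Notch2-11cKO 2 of 11 (list median -0.66). Their list mean was 10.27 to 10.49 in WT untreated, 8.39 to 8.55 in WT SRBC, 9.89 to 10.35 in Notch2-11cKO untreated and 8.90 to 9.20 in Notch2-11cKO SRBC. The part of heat shock genes in the receptor values was not tested. The Cxcr5 and Ccr7 rises in WT kept their calls with the covariate, as did the genotype differences of Gpr183 (untreated), Ccr6 and Ccr1. Between the untreated genotypes the covariate hardly differed (9.66 and 9.56 against 9.63 and 9.65). It could therefore hardly change the untreated differences, and their kept calls are not support. The covariate lay between 8.49 and 9.25 on SRBC arrays and between 9.56 and 9.66 on untreated arrays. It thus cannot be told apart from SRBC, and no conclusion is drawn from the SRBC responses fitted with it.

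**Figure D3:**
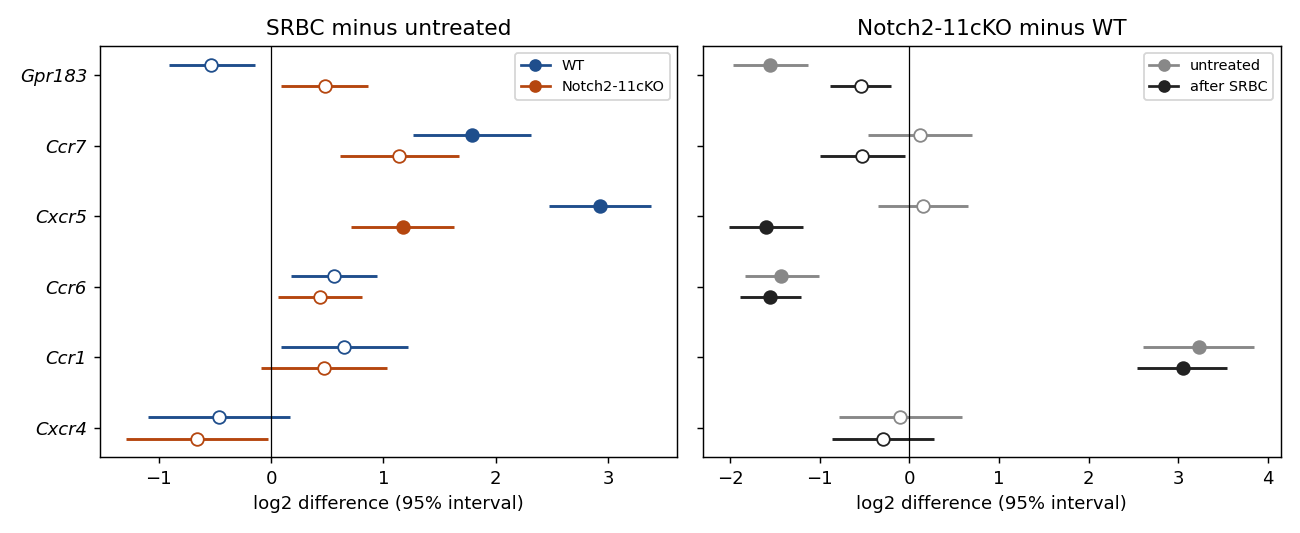
Log2 difference (horizontal axes) of each receptor after SRBC in WT and Notch2-11cKO (left) and between Notch2-11cKO and WT without treatment and after SRBC (right). Points are fitted differences, lines 95% intervals, and filled points have an adjusted p below 0.05; the intervals of the 2 Gpr183 responses lie on opposite sides of 0 and those of the 2 Cxcr5 responses do not overlap.

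The genes with the most alike patterns were found by the root mean square difference of log2 intensity over the 10 arrays, after each gene's own mean was removed, among 9569 or 9570 brighter genes. This was done for the 5 receptors whose group means spanned over 1 log2 unit, which left out Cxcr4. Nearest to Gpr183 were Spag5 (0.15), a mitotic spindle gene, Man1a (0.16), a Golgi mannosidase, and Agpat3 (0.18), a lipid acyltransferase. Nearest to Ccr7 were Samsn1 (0.19), an adaptor of lymphocytes, St8sia4 (0.22), a polysialyltransferase, and the transcription factor Zbtb18 (0.24).

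Nearest to Cxcr5 were Hsf2 (0.35), a heat shock factor, Pcgf5 (0.36), a Polycomb ring finger gene, and Prnp (0.37), the prion protein gene. Hsf2, for example, had group means of 6.14 in WT untreated, 8.63 in WT SRBC, 6.24 in Notch2-11cKO untreated and 7.14 in Notch2-11cKO SRBC. Nearest to Ccr6 were Cyld (0.23), a deubiquitinase that restrains NF-kB, Eml5 (0.26) and Cdon (0.26), and nearest to Ccr1 were Ahnak (0.32), Myof (0.35) and Pld3 (0.35). Ahnak had means of 5.47 and 6.11 in the WT groups (untreated, SRBC) and 8.86 and 8.96 in the Notch2-11cKO groups.

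Among the ligands of these receptors, Cxcl13, the ligand of Cxcr5, differed strongly between genotypes. On the arrays Cxcl13 had 4.63 and 4.40 in WT untreated, 5.33, 4.96 and 4.84 in WT SRBC, 9.66 and 9.09 in Notch2-11cKO untreated, and 9.42, 9.45 and 8.36 in Notch2-11cKO SRBC. Every Notch2-11cKO array was above every WT array. The difference was 4.86 ± 0.35 untreated (adjusted p = 1.59e-05) and 4.03 ± 0.29 after SRBC (adjusted p = 1.94e-05). In the order of responses Cxcl13 did not follow Cxcr5: its SRBC response was 0.53 ± 0.32 in WT (adjusted p = 0.463) and -0.30 ± 0.32 in Notch2-11cKO (adjusted p = 0.818).

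Ccl6 and Ccl9, both ligands of Ccr1, were higher in Notch2-11cKO as Ccr1 was. Without treatment Ccl6 measured 5.89 and 6.26 on the WT arrays against 11.08 and 10.76 on those of Notch2-11cKO, a difference of 4.85 ± 0.21 (adjusted p = 6.7e-07), and Ccl9 differed by 4.30 ± 0.23 (adjusted p = 2.21e-06). After SRBC the differences were 4.12 ± 0.17 and 4.0 ± 0.18, and Ccl7 (2.23 ± 0.39, adjusted p = 0.00625) and Ccl8 (0.78 ± 0.12, adjusted p = 0.00256) were higher as well. Of the 12 ligands measured, 3 were thus higher and none lower untreated, against 2.95% and 2.16% of all genes, with a median difference of 0.19 against -0.02. After SRBC 5 were higher and none lower, against 3.36% and 1.96%, with a median of 0.48 against -0.02. Ccl3, another Ccr1 ligand, fell after SRBC in WT (-1.87 ± 0.19, adjusted p = 0.0006) and in Notch2-11cKO (-1.14 ± 0.19, adjusted p = 0.0386), and the latter call was lost without any of 7 arrays (adjusted p from 0.0512 to 0.361). Ccl4, an inflammatory chemokine, fell in WT (-2.13 ± 0.40, adjusted p = 0.0142) and was lost without WT untreated replicate 1 (0.159) or 2 (0.111). Ccl19, Ccl20 and Cxcl12, which bind Ccr7, Ccr6 and Cxcr4, did not pass in any comparison, and the Ccl21 genes were not analysed here. Without both arrays that stand apart the ligand counts were 4 higher and 3 lower untreated, and 6 higher and none lower after SRBC.

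Of the 4 enzymes that make or break down the oxysterol ligand of Gpr183, Cyp7b1 passed between genotypes (2.95% of all genes higher untreated, 3.36% after SRBC). It encodes the hydroxylase that completes the ligand. Cyp7b1 was 4.23 and 4.09 in WT untreated, 4.72, 4.88 and 4.82 in WT SRBC, 4.78 and 5.07 in Notch2-11cKO untreated, and 5.65, 6.08 and 5.58 in Notch2-11cKO SRBC. The difference was 0.97 ± 0.15 after SRBC (adjusted p = 0.00329) and 0.77 ± 0.19 untreated (adjusted p = 0.0372), the latter lost without any of 7 arrays (adjusted p from 0.0507 to 0.282). Ch25h, the cholesterol 25-hydroxylase, differed by 0.41 ± 0.14 untreated (adjusted p = 0.142), and Hsd3b7, which degrades the ligand, by 0.19 ± 0.18 (adjusted p = 0.782).

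Of 25 other chemoattractant receptors 4 were higher and none lower in untreated Notch2-11cKO, where 2.95% of all genes were higher and 2.16% lower. They were Ccr2 (4.87 ± 0.35), the monocyte receptor, Cx3cr1 (3.12 ± 0.47), the fractalkine receptor, Ltb4r1 (2.79 ± 0.42), a leukotriene B4 receptor, and the chemerin receptor Cmklr1 (1.81 ± 0.33), whose call was lost without WT untreated replicate 2 (adjusted p = 0.0862) or Notch2-11cKO untreated replicate 1 (0.0693). After SRBC the same 4 and the complement receptor C3ar1 (1.58 ± 0.35) were higher, where 3.36% of all genes were, C3ar1 not without WT SRBC replicate 3 (adjusted p = 0.0872) or Notch2-11cKO SRBC replicate 1 (0.0847). Without both arrays that stand apart 6 were higher and 1 lower untreated. In the SRBC responses Xcr1 alone passed, in WT (1.09 ± 0.22, adjusted p = 0.023), and it was lost without WT untreated replicate 1 (0.0525), WT untreated replicate 2 (0.232) or WT SRBC replicate 2 (0.0588), while 3 were higher without both arrays that stand apart. The median of the 25 was 0.17 untreated and -0.03 after SRBC. Ccr1 and Ccr2 lie close together in a chemokine receptor cluster, and of the 8 nearest measured neighbours of Ccr1 in the RefSeq order, Ccr2 alone passed between genotypes. Ccr1l1 and Ccr3, which lie between them, had -0.06 ± 0.16 (adjusted p = 0.943) and 1.62 ± 0.49 untreated (adjusted p = 0.0977) and Xcr1, on the other side, 0.58 ± 0.24 (adjusted p = 0.291).

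**Figure D4:**
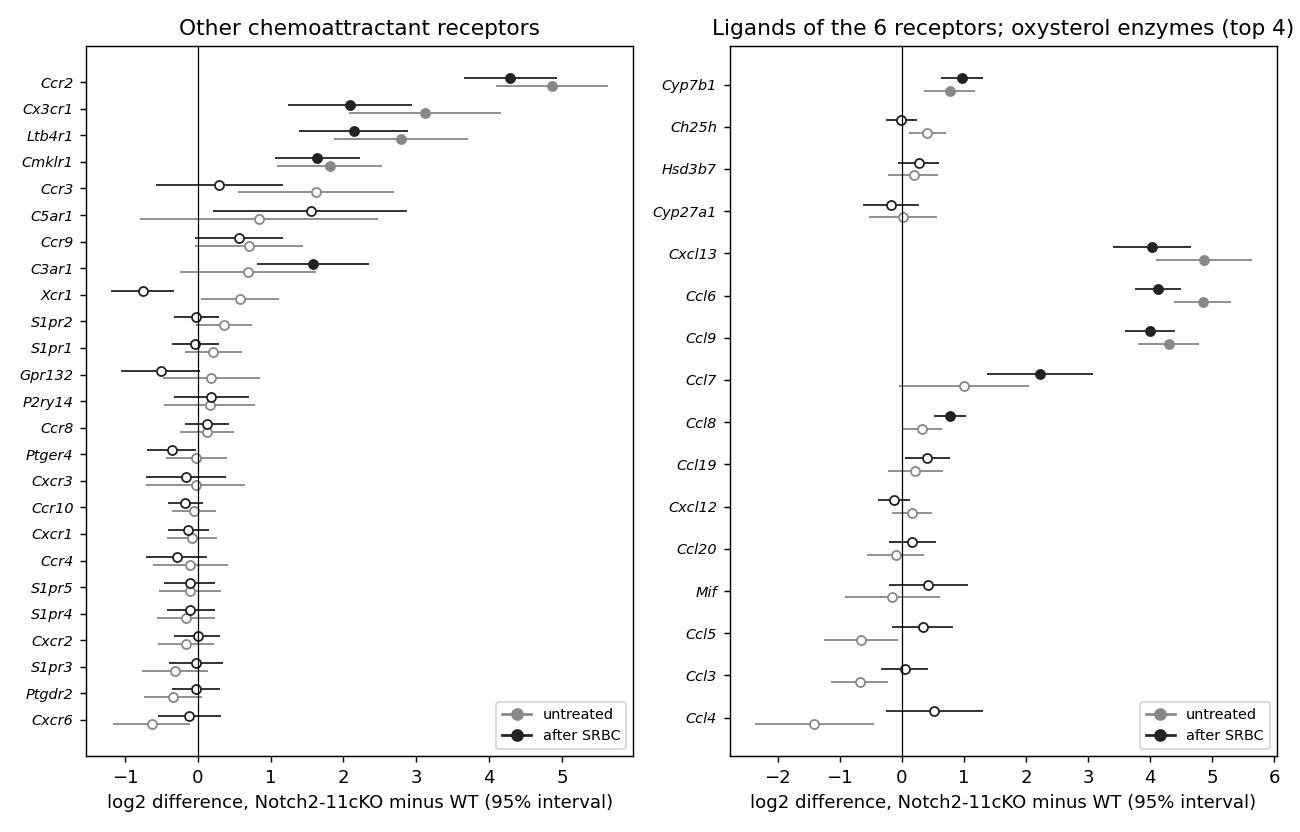
Log2 difference of Notch2-11cKO from WT (horizontal axes) untreated and after SRBC for 25 other chemoattractant receptors (left) and for 12 ligands of the receptors with 4 oxysterol enzymes at the top (right). Points are fitted differences, lines 95% intervals, filled points have an adjusted p below 0.05; Cxcl13, Ccl6, Ccl9 and Ccr2 lie between 4.0 and 4.87.

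Genes that carry or end the signal of these receptors moved both ways. Of 31 measured, 5 fell in the WT response and none rose, where 1.97% of all genes fell and 1.82% rose: the GTPase Rac2 (-1.45 ± 0.22), the regulators of G protein signalling Rgs14 (-0.74 ± 0.14) and Rgs3 (-1.40 ± 0.33), the G protein subunit Gng2 (-0.86 ± 0.18) and Elmo1 (-0.88 ± 0.20). The list median was -0.42 against 0.02 over all genes. Each of these 5 calls was lost without WT untreated replicate 1 (adjusted p from 0.0724 to 0.288) and without replicate 2 (0.0629 to 0.215), and 1 of the 5 remained without WT SRBC replicate 2 and 1 without WT SRBC replicate 3. The count grew without the arrays that stand apart, to 8 lower without either alone and to 14 lower and 1 higher without both. No gene of this list passed in the Notch2-11cKO response, where the median was -0.20.

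Between untreated genotypes the receptor kinase Grk5 (1.58 ± 0.23) and beta-arrestin Arrb1 (1.57 ± 0.23), which switch off and internalise such receptors, were higher, 2 of 31 against 2.95% of all genes. Rgs12 (-1.66 ± 0.20), Elmo1 (-1.68 ± 0.22), Rgs1 (-0.95 ± 0.19), Rac2 (-1.17 ± 0.24) and Pik3cg (-1.59 ± 0.41) were lower, 5 of 31 against 2.16%. After SRBC Grk5 (1.28 ± 0.19) and Arrb1 (1.59 ± 0.19) were again higher, and Rgs1 (-1.01 ± 0.16) and Elmo1 (-0.85 ± 0.18) lower, against 3.36% and 1.96% of all genes. The calls of Grk5, Arrb1 and Rgs12 held with any 1 array left out, whereas without Notch2-11cKO untreated replicate 1 the untreated calls of Rgs1 (adjusted p = 0.053), Rac2 (0.157) and Pik3cg (0.309) did not. They were also lost without WT untreated replicate 1 (0.115, 0.103 and 0.267) or 2 (0.108, 0.122 and 0.204), and Rgs1 and Pik3cg without Notch2-11cKO untreated replicate 2 (0.131 and 0.125). Pik3cg was lost without WT SRBC replicate 2 (0.0685), WT SRBC replicate 3 (0.0692) and Notch2-11cKO SRBC replicate 1 (0.063) too. After SRBC, Elmo1 was lost without WT SRBC replicate 2 (0.0766) or Notch2-11cKO SRBC replicate 1 (0.057).

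Of 19 measured genes of dendritic cell migration and maturation, 3 rose and 1 fell in the WT response, where 1.82% and 1.97% of all genes did. Those that rose were the actin bundler Fscn1 (1.84 ± 0.28), the semaphorin Sema7a (2.03 ± 0.27) and Marcksl1 (0.78 ± 0.19). The integrin Itgam fell (-1.44 ± 0.19), and all 4 were lost without WT untreated replicate 1 (adjusted p from 0.0514 to 0.347), as Ccr7 was. Marcksl1 was lost without any of 7 arrays. In Notch2-11cKO Fscn1 had 1.46 ± 0.28 (adjusted p = 0.0622) and Sema7a 1.33 ± 0.27 (adjusted p = 0.0778). Sema7a was lower in Notch2-11cKO than in WT after SRBC (-1.07 ± 0.24, adjusted p = 0.0251), a call lost without any of 5 SRBC arrays (adjusted p from 0.0519 to 0.0947). Without both arrays that stand apart 6 of the 19 rose and 3 fell in WT. Between genotypes 3 were higher and 1 lower untreated (2.95% and 2.16% of all genes) and 5 higher and 2 lower after SRBC (3.36% and 1.96%), among them Itgam (1.82 ± 0.17, adjusted p = 0.000101), higher in Notch2-11cKO after SRBC.

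Among 6 atypical receptors, which bind chemoattractants without driving migration, Ccrl2 was higher in Notch2-11cKO after SRBC (1.57 ± 0.36, adjusted p = 0.0282). There 3.36% of all genes were higher and 1.96% lower. The call was lost without WT SRBC replicate 2 (0.0925), WT SRBC replicate 3 (0.0995), Notch2-11cKO SRBC replicate 1 (0.108) or Notch2-11cKO SRBC replicate 2 (0.0856). Of 7 genes of red blood cell sensing and retention in the blood-exposed spleen, 1 passed, in the WT response (1.97% of all genes lower, 1.82% higher). It was Arhgef1 (-0.83 ± 0.17, adjusted p = 0.023), an activator of RhoA downstream of G12 and G13 proteins, and in Notch2-11cKO it had -0.76 ± 0.17 (adjusted p = 0.0993). The WT call was lost without WT untreated replicate 1 (0.154), WT untreated replicate 2 (0.188) or WT SRBC replicate 3 (0.076).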

How the data were processed

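Arrays were one-colour and biotin-labelled with the Ambion WT Expression kit, per the labels' protocols. The authors deposited linear intensity per probe set; close array medians (29.5 to 31.7) go with normalized values, by a procedure not given in the sources used here. Of 28853 probe sets 21789 had exactly 1 symbol in the platform annotation, and the probe set with the highest mean log2 was kept for each of 19938 genes. Each receptor had 1 probe set.

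The immediate-early covariate and other settings, and 1 array left out, were alternatives; the labels give no batch. Log2 values were fitted with limma 3.58.1 in R 4.3.3 (1 mean per group, mean-variance trend, 6 residual degrees of freedom), with two-sided tests and Benjamini-Hochberg adjustment across the 19938 genes. Named genes were the 6 receptors, their 3 most alike genes each, and list members with the smallest p or in small counts. The receptors, gene lists and tests were chosen with earlier results of these data known; names in counts of 5 or fewer, the search of start windows, the neighbours and the leaving out of arrays for the lists were chosen after values were seen. The fit was also run on simulated data, with independent noise of equal spread on every array. The 2 arrays that stand apart have no counterpart there, so the simulation gives no assurance for calls that depend on them. Python 3.11.15 and pandas 2.3.3 were also used.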

Additional observations from a re-analysis of the deposited data

Results flagged for a closer look

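The SRBC response of Gpr183 had opposite signs in the genotypes. Every WT SRBC array lay below every WT untreated array and every Notch2-11cKO SRBC array lay above every Notch2-11cKO untreated array, and the responses differed by 1.00 ± 0.25 (log2, Notch2-11cKO minus WT). The difference was tested in the fit over all genes and did not pass (adjusted p = 0.336). Over the alternative settings it lay between 0.86 and 1.16, and the adjusted p between 0.0145 and 0.944.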

How the results depend on the processing

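Over 30 receptor differences and up to 21 settings each, 574 of 619 values kept their direction and their side of the threshold, 16 called values no longer passed, 16 now passed and 13 changed sign. Counts of called genes moved more. The WT response had 756 genes, and 1886 with array weights, 236 with the immediate-early covariate, 2300 without both arrays that stand apart, and 101 (without WT untreated replicate 1) to 1331 (without WT SRBC replicate 1) with 1 array left out. The Notch2-11cKO response had 61, and 103 without the trend, 23 from the groups compared only, 267 with weights, 3 with the covariate, 398 without both arrays and 2 (without Notch2-11cKO untreated replicate 1) to 183 (without WT SRBC replicate 1). The untreated genotypes had 1019, and 1966 from the groups compared only, 1822 with weights, 1996 without both arrays and 418 to 1390. After SRBC there were 1061, and 627 from the groups compared only, 1615 with weights, 2364 without both arrays and 649 to 1256. The difference of responses had 4 (1289 at an unadjusted p below 0.05), and 2 among brighter genes, 7 without the trend, 63 with weights, 13 with the covariate, 604 without both arrays and 0 (without WT untreated replicate 1; limma, 916 at an unadjusted p below 0.05) to 44. With the replicate block the 5 counts were 715, 50, 1175, 1319 and 6, and among the receptors it ended the Cxcr5 call in Notch2-11cKO only; same-numbered arrays deviated together at r -0.22 to 0.48, so the numbers were not taken as pairs.

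Signs turned only for values that were not called. Cxcr4 turned with the covariate (0.79 and 0.34 in the responses), and its genotype difference after SRBC ran from -0.55 to 0.03 (without Notch2-11cKO SRBC replicate 1 and 3) and was 0.20 without both arrays. The difference of its responses was 0.07 with weights, -0.45 to 0.12 (the same 2 arrays) and 0.29 without both. That of Ccr1 was 0.12 with log2 of the value plus 16, 0.03 without WT SRBC replicate 3, and -0.53 to 0.16 without Notch2-11cKO untreated replicate 2 or 1, and that of Ccr6 was -0.23 to 0.02 without WT SRBC replicate 2 or 3. Between untreated genotypes Ccr7 was -0.05 without WT untreated replicate 1 and Cxcr5 -0.03 without Notch2-11cKO untreated replicate 1. The causes were not tested. With 2 or 3 arrays a group, a group left with 1 array is assumed to vary like the others. Array signal without detection calls limits the low levels of Cxcr5 and Ccr1.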
